A study of Rattus norvegicus with 10 samples.

Results

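The second 2 hr of a high dose of FGF2 were followed in lens explants of 3-day-old rats by setting 2 arrays of 4 hr against 2 arrays of 2 hr, which are 4 of the 10 arrays of the study. An explant here is a piece of lens capsule that carries its epithelial cells, and 6 explants were pooled for each assay. The 4 hr explants had received 100 ng/mL FGF2 for 4 hr and the 2 hr explants the same dose for 2 hr, and all of them, like those of 0, 12 and 24 hr, had first spent a night at 5 ng/mL FGF2, the state called 0 hr. The 2 arrays of a time carry RNA from different cultures, by the study's methods. The labels name no batch or run for any array. No array held explants kept at 5 ng/mL for equal times, so hours at the high dose and hours in culture cannot be told apart.

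FGF2 binds receptor tyrosine kinases on the lens epithelial cell and switches on the ERK kinase cascade, and at high doses it drives these cells to become lens fibers. The first genes to answer such a signal, the immediate early genes, are transcribed without any new protein, and many encode transcription factors with short-lived messages. Their products and the feedback inhibitors made beside them then shape a later wave of delayed early genes, among them receptors, secreted factors, and enzymes. The comparison of 4 with 2 hr asks which transcripts moved between these waves.

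The explants carried transcripts of lens cells at both times. The alpha crystallin Cryaa read 25148 and 24207 at 4 hr, against 22515 and 24806 at 2 hr, the cadherin Cdh1 10730.0 and 11175 at 4 hr, against 10782 and 11666 at 2 hr, and the eye regulator Pax6 7127 and 6999 at 4 hr, against 8397 and 8219 at 2 hr, on the linear intensity scale of the deposited values. Cryaa and Cdh1 kept nearly the same level, and Pax6 lay somewhat lower on both 4 hr arrays (log2 difference −0.23). Of the 12 markers listed for the lens epithelium, with a median of 0.01, only Sox2 passed the test, with a rise of 0.60. The study counts alpha crystallin expression among early features of fiber differentiation, so this median does not tell epithelium from fibers. Gja1 (−0.58) and Foxe3 (−0.50) lay lower on both 4 hr arrays without a call. Both 4 hr arrays lay below both 2 hr arrays in 20.8% of all probe sets. Six3 and Hsf4, with at most 93.4 and 44.5, were dim on all 4 arrays. Of the markers of other cell types, the 12 of macrophages summed to 867 to 872 at 4 hr and 715 to 1099 at 2 hr, the 7 of retina to 216 at 4 hr and 211 to 213 at 2 hr, and the 6 of pigment cells to 193 to 201 at 4 hr and 195 to 205 at 2 hr, and none of them passed. Among 7 endothelial markers, which summed to 1332 to 1499 at 4 hr and 1791 to 1892 at 2 hr, only Vwf passed (log2 difference −0.73). The sums of 9 fibroblast and muscle markers ran from 16287 to 20795 at 4 hr and from 17613 to 20581 at 2 hr, where most of the level came from Pdgfra and Des, and those of 3 erythroid markers from 2332 to 2479 at 4 hr and from 2064 to 3664 at 2 hr. The part of such cells in the differences below was not tested, and in RNA of whole explants fewer cells of a type and less RNA per cell cannot be told apart.

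Of the 31042 probe sets tested, 694 (2.24%) were higher and 465 (1.5%) were lower at 4 than at 2 hr by limma, with p-values adjusted over all of them by Benjamini-Hochberg and a threshold of 0.05. The median rise was 0.76 and the median fall −0.78 on the log2 scale, against a median of −0.01 over all probe sets, and 204 rises and 124 falls were at least 2-fold. In each of these 1159 probe sets both 4 hr arrays lay outside both 2 hr arrays, which was also true, in one direction or the other, of 18.4% (4 hr above) and 20.8% (4 hr below) of all probe sets. The fit took 1 mean per time from all 10 arrays and pooled the spread, and the arrays of these 2 times spread more than the others: replicates of 4 hr differed with an SD of 0.30 on the log2 scale and those of 2 hr with 0.29, while the other times gave 0.16 to 0.21. Fitted to the 4 arrays alone, limma called 12 rises and no fall (3085 probe sets at an unadjusted p under 0.05), and with a weight for each time it called 274 rises and 173 falls, all 447 among the 1159. Without 2 hr replicate 2 there were 389 rises and 238 falls, without 4 hr replicate 1 523 and 239, without 4 hr replicate 2 837 and 909, without either 0 hr array 419 and 275, and without either 12 hr array 438 and 288. The log2 5'/3' ratio of the Actb control, a sign of RNA length, was −1.37 and −2.08 at 4 hr and −1.68 and −2.13 at 2 hr, so that replicate 2 lay lower at both times. With 2 arrays against 2, an exact permutation test of a single gene cannot give a two-sided p under 0.333, so each call below rests on the pooled fit.

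Among probe sets with 1 gene symbol, which are the ones named here, the largest rise belonged to Cnr1, the gene of the cannabinoid receptor CB1, which read 364 and 305 at 4 hr, against 55.8 and 26.5 at 2 hr, so that both 4 hr arrays stood far above 2 hr (log2 difference 3.12, standard error 0.40, adjusted p = 0.0053). Its second probe set was not called (0.22), and the mean of both was 1.67. Npas2, a clock transcription factor that pairs with Bmal1, read 333 and 357 at 4 hr, against 40.4 and 39.4 at 2 hr. The 2 arrays of each time nearly coincided and the levels were 8.64-fold apart (log2 difference 3.11, standard error 0.09, adjusted p = 6.0e-06). Ccl20, a chemokine that attracts lymphocytes and dendritic cells, read 4344 and 4504 at 4 hr, against 552 and 498 at 2 hr (log2 difference 3.08, standard error 0.35, adjusted p = 0.0032). Kcnd3, the potassium channel Kv4.3, read 336 and 319.6 at 4 hr, against 42.0 and 51.1 at 2 hr (log2 difference 2.82, standard error 0.11, adjusted p = 1.9e-05). The last was seen at 4 hr alone, since the other times gave 48.2 and 48.3 at 0 hr, 49.7 and 46.7 at 12 hr, and 50.4 and 51.7 at 24 hr. Of the other probe sets of Kcnd3, 1 rose (1.77) and 1 was not called (−0.15).

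The other 11 of the 15 largest rises were of several kinds. Tiam1, an exchange factor that activates the GTPase Rac, read 355 and 588 at 4 hr, against 85.2 and 61.1 at 2 hr (log2 difference 2.66, standard error 0.24, adjusted p = 0.0012). Dapk2, a calmodulin-regulated death-associated kinase, read 296 and 329 at 4 hr, against 68.8 and 54.0 at 2 hr (log2 difference 2.36, standard error 0.15, adjusted p = 3.3e-04). The transporter of organic cations Slc22a4, at a dim probe set, read 52.1 and 77.6 at 4 hr, against 13.8 and 14.2 at 2 hr (log2 difference 2.18, standard error 0.20, adjusted p = 0.0013). The calcium sensor Hpcal4 (log2 difference 2.16), the neuronal ubiquitin ligase Trim9 (2.08), the secreted neural protein Nell2 (2.19), the G protein regulator Rgs7 (2.05), and Scel, which encodes sciellin of the cornified envelope (1.98), also rose. So did Fam181b (2.05), Ccdc125 (2.07), and Sh3tc1 (2.06). Nell2 read 124 and 159 at 4 hr, 47.8 and 19.8 at 2 hr, and 125 and 177 at 0 hr, so its 2 hr arrays were the low ones. A second probe set of Trim9 (0.01) and of Fam181b (0.28) was not called, and of the 16 genes with other probe sets among the 30 largest rises and falls, 10 had another one called the same way. In the fit of the 4 arrays alone Npas2 and Ccl20 (adjusted p = 0.013 each), Kcnd3 (0.033), Dapk2, and Scel (0.0486 each) were still called by limma, as was the receptor tyrosine kinase Ret outside the 15 largest. Leaving out 1 array at a time ended the call of Nell2 once (adjusted p = 0.0504 without 4 hr replicate 2), of Sh3tc1 7 times (up to 0.13), and of Ccdc125 and Rgs7 8 times (up to 0.16 and 0.17, without 4 hr replicate 1), while the other 11 stayed called throughout.

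The largest fall was that of Errfi1, which encodes an inhibitor of the EGF receptor and is itself switched on by ERK. It read 283 and 381 at 4 hr, against 1634 and 1901 at 2 hr (log2 difference −2.43, standard error 0.15, adjusted p = 3.3e-04), and since 0 hr gave 214 and 213, most of the 2 hr peak was gone by 4 hr. Hlf, a PAR bZIP transcription factor of the circadian output, read 78.6 and 177 at 4 hr, against 647 and 579 at 2 hr at the probe set that moved most (log2 difference −2.38, standard error 0.37, adjusted p = 0.011), and 2 other probe sets of Hlf fell by 1.48 and 1.98 on the log2 scale while a dim one was not called (−0.10). Here replicate 1 lay lower than replicate 2 at 4 hr, and both lay below 2 hr. Pdk4, a kinase that shuts pyruvate out of the mitochondrial oxidation, read 264 and 363 at 4 hr, against 883 and 1383 at 2 hr (log2 difference −1.84, standard error 0.31, adjusted p = 0.015). Pfkfb3, which makes the activator of phosphofructokinase, read 519 and 798 at 4 hr, against 1898 and 2724 at 2 hr (log2 difference −1.82, standard error 0.22, adjusted p = 0.0037), with both 4 hr arrays below the 1097 and 1067 of 0 hr. A dim probe set of Pfkfb3 (−0.43) and a dim one of Pdk4 (−0.54) were not called. Nor was another of Pfkfb3 (−0.12), which read 84.4 and 97.9 at 4 hr, against 109 and 89.5 at 2 hr.

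Further falls touched second messengers, kinases, and the fiber connexin. The liprin Ppfibp2 fell by 2.00 on the log2 scale, the calmodulin-dependent phosphodiesterase Pde1b fell as well (log2 difference −1.89, and −0.30 with no call at a second probe set), and Chn2, which encodes a GTPase-activating protein for Rac, fell by 1.81. Map2k6, the kinase that activates p38, fell by 1.51, and Dapk1, a relative of Dapk2, by 1.35. Dapk1 read 494 and 589 at 4 hr, against 1226 and 1548 at 2 hr, opposite in direction to Dapk2. Gja3, the lens fiber connexin 46, read 488 and 821 at 4 hr, against 1516 and 2043 at 2 hr (log2 difference −1.47, standard error 0.23, adjusted p = 0.011), and its second, brighter probe set fell by 1.23. The homeobox gene Irx3 read 37.8 and 60.6 at 4 hr, against 136 and 157 at 2 hr (log2 difference −1.61, standard error 0.21, adjusted p = 0.0054), above 15.4 and 18.2 at 0 hr, so that it was high at 2 hr and partly back at 4 hr. Tcim (−1.81), Suco (−1.58), Ets2 (−1.47), and Plcxd2 (−1.43) made up the 15. Tcim was not called under 8 of the 10 omissions of an array (up to 0.14, without 4 hr replicate 1), Pdk4 not without 2 hr replicate 2 (0.08) or 4 hr replicate 1, and Hlf (0.0511) and Gja3 (0.064) not without 2 hr replicate 2, while the brighter Gja3 probe set was not called without 4 hr replicate 1 (0.068). The other 11 stayed called.

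**Figure D1:**
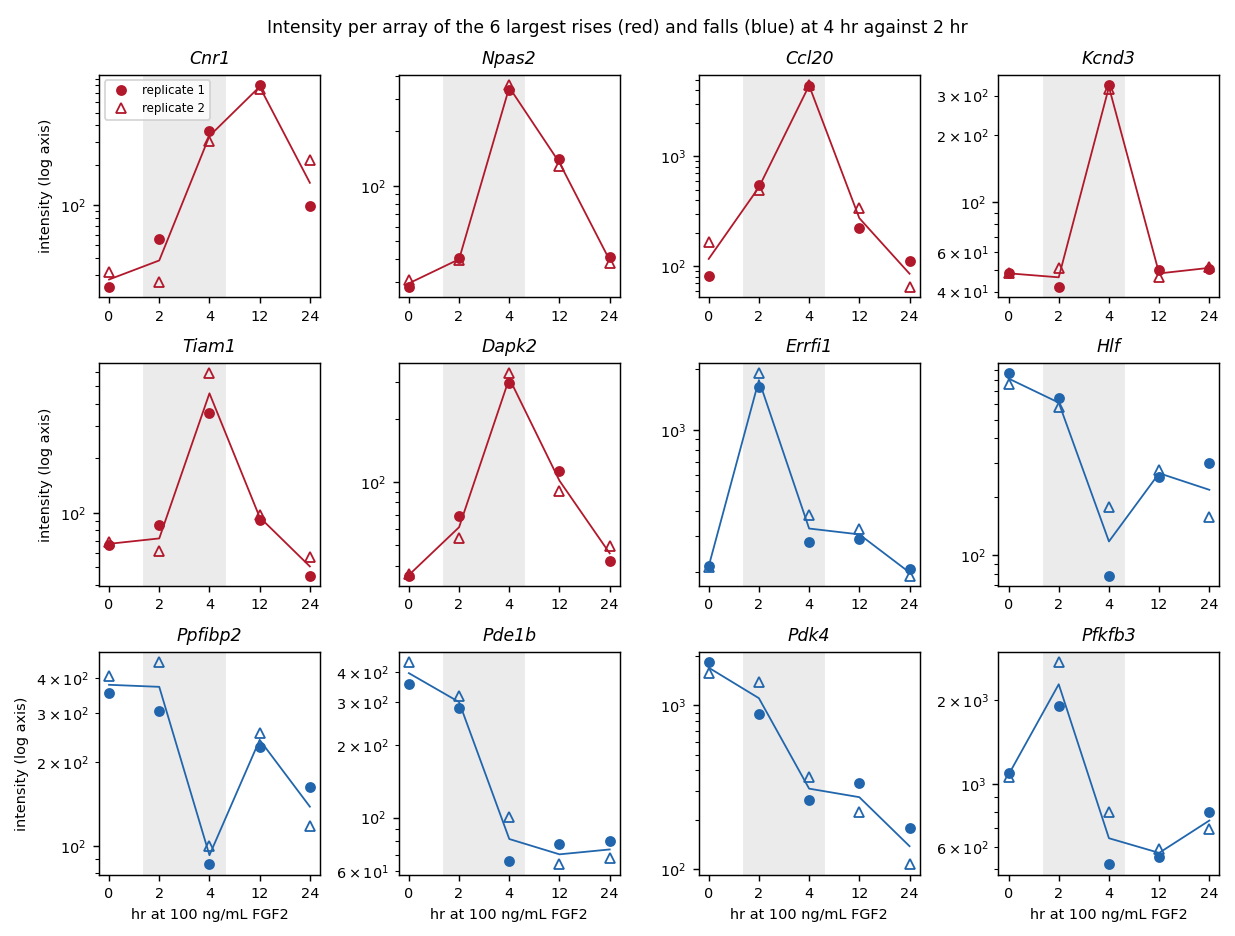
Intensity (log axis) of the 6 largest rises, in red, and the 6 largest falls, in blue, at 4 hr against 2 hr over hr at 100 ng/mL FGF2, with filled circles for replicate 1, open triangles for replicate 2, a line through the mean of the log2 values, and the 2 and 4 hr arrays on grey. Npas2, Ccl20, Kcnd3, Tiam1, and Dapk2 were highest at 4 hr, Cnr1 was higher still at 12 hr, and Errfi1 and Pfkfb3 were highest at 2 hr.

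Among the 15 largest rises the mean at 4 hr was the highest of the 5 times for 8, and among the 15 largest falls the mean at 2 hr was the highest for 8 and the mean at 4 hr the lowest for 7. Choosing genes by 4 hr against 2 hr favors such counts, and the shares over all probe sets were not counted. The comparison with 0 hr shares its arrays with the step, so the levels are only set side by side here. Npas2 gave 28.2 and 30.8 at 0 hr, 140.2 and 128 at 12 hr, and 40.8 and 38.1 at 24 hr. Ccl20 gave 81.6 and 167 at 0 hr, 223 and 338 at 12 hr, and 113 and 65.0 at 24 hr. Errfi1 gave 214 and 213 at 0 hr, 290.3 and 324 at 12 hr, and 207 and 192 at 24 hr, none of them above the higher 4 hr array. Cnr1, in contrast, gave 24.3 and 31.4 at 0 hr, 812 and 756 at 12 hr, and 99.0 and 221 at 24 hr.

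Immediate early transcription factors stood lower at 4 hr. Of 30 measured, 6 fell and none rose, against 1.84% falls and 2.82% rises among all 14217 genes at 1 probe set per gene, and 26 had a negative difference. Their median was −0.60, against −0.01 over all genes. Egr2, a zinc finger factor of the Egr family, read 1262 and 1996 at 4 hr, against 3451 and 4639 at 2 hr (log2 difference −1.33, standard error 0.25, adjusted p = 0.023). Its 4 hr level was still well above 0 hr, at 118 and 121. Nab2, a corepressor of the Egr factors, read 1552 and 1688 at 4 hr, against 3253 and 3115 at 2 hr (log2 difference −0.98, standard error 0.13, adjusted p = 0.0068), and Nab1, its relative, 796 and 1032 at 4 hr, against 1825 and 1645 at 2 hr (log2 difference −0.93, standard error 0.13, adjusted p = 0.0068). The small Maf factor Maff (−1.05), the Kruppel-like factor Klf4 (−0.77), and Srf, the serum response factor that drives many immediate early genes (−0.60), fell as well. Neither other probe set of Srf was called (−0.14 and −0.22).

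Several of the best known members did not pass. Fos had a difference of −0.62 (adjusted p = 0.12), Myc −0.61 (0.35), Nr4a1 −0.79 (0.26), and Arc −1.73 (0.056), with both 4 hr arrays below both 2 hr arrays in each case. The same position was held by 20.8% of all probe sets. Egr1 read 12892 and 14051 at 4 hr, against 13929 and 14499 at 2 hr, a difference of −0.08 (standard error 0.10, adjusted p = 0.76), and Jun one of −0.04 (standard error 0.14). The members thus covered a range from near 0 to −1.73. Nab1 and Nab2 kept their calls without any 1 array, whereas Srf lost it without 2 hr replicate 2 (up to 0.083) or 4 hr replicate 2, Egr2 (0.11) and Maff (0.11) under 6 omissions, and Klf4 under 8 (0.16).

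A CArG box, the binding site of Srf, was matched in the promoter (250 bases before to 50 after the annotated start, RefSeq, GRCr8) of 2.9% of the genes that fell, 0.563% of those that rose, and 1.35% of all 11733 genes with a promoter in the table. The stretches around the matches in Egr2, Srf, and the ERK phosphatase Dusp5 are shown because these 3 members of the lists fell and hold the box, each read 5′ to 3′ in the direction of the gene with the CArG box in capitals.
Egr2, chr20:21054505-21054534, minus strand: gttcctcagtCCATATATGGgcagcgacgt
Srf, chr9:21923985-21924014, plus strand: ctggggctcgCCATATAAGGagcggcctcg
Srf, chr9:21924005-21924034, plus strand: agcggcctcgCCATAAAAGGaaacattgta
Dusp5, chr1:262543687-262543716, plus strand: aacacCCATATTTGGCCTTATATGGgcact
The first letter of the match lies 83 bases before the start in Egr2, 81 and 61 in Srf, and 82 in Dusp5, where 2 boxes adjoin. A match is a string of letters and not a measured binding site.

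**Figure D2:**
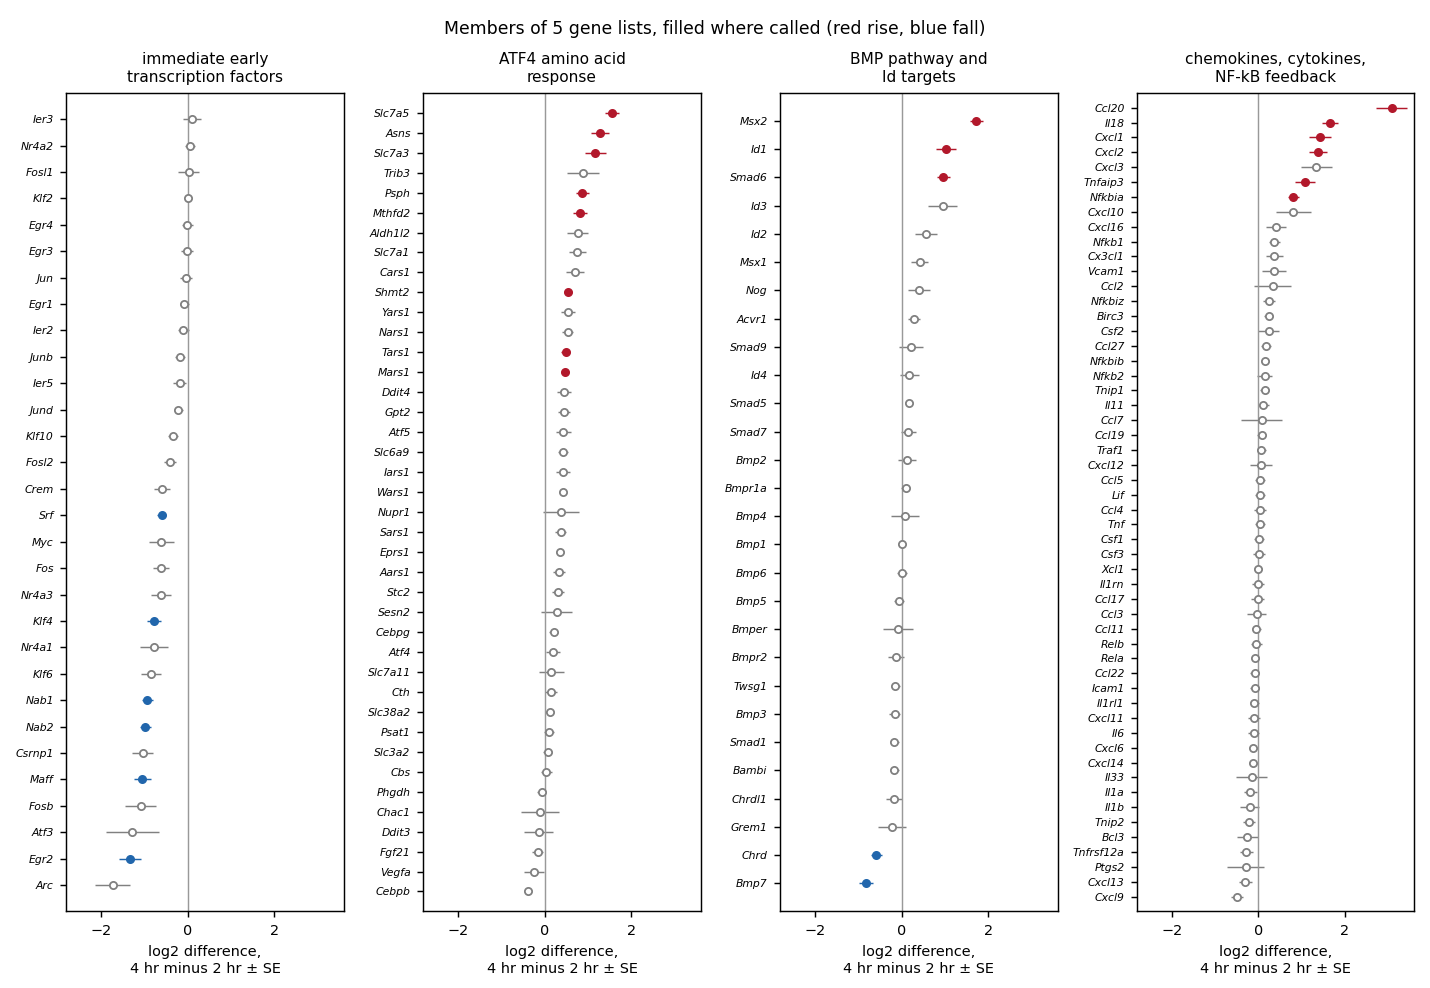
Log2 difference of 4 hr minus 2 hr with its standard error (SE) for the measured members of 5 gene lists, 1 row per gene, filled in red for called rises, filled in blue for called falls, and open for genes not called. The immediate early factors lie mostly left of 0, with 6 falls, the genes of the ATF4 response mostly right of 0, with 8 rises.

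The feedback inhibitors of the ERK cascade did not move together. Of 25 measured, Sh2b3 rose (4%, against 2.82% of all genes) and Errfi1 and Dusp5 fell (8%, against 1.84%). The median was 0.00. Sh2b3, an adaptor that restrains cytokine receptors, read 981 and 976 at 4 hr, against 587 and 407 at 2 hr (log2 difference 1.00, standard error 0.15, adjusted p = 0.0096). Dusp5, a nuclear phosphatase of ERK, read 315 and 357 at 4 hr, against 626 and 901 at 2 hr (log2 difference −1.16, standard error 0.19, adjusted p = 0.013), and lost the call without 2 hr replicate 2 or 4 hr replicate 1 (up to 0.061). Dusp6, the cytoplasmic phosphatase of ERK, had a difference of 0.80 (adjusted p = 0.11), and the Sprouty genes Spry1, Spry2, and Spry4 had −0.23, 0.17, and 0.28, none of them called.

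Among receptors and ligands of the EGF and FGF families, Egfr rose and the ligand Hbegf fell. Egfr read 494 and 912 at 4 hr, against 207 and 237 at 2 hr (log2 difference 1.60, standard error 0.27, adjusted p = 0.015), with the 4 hr arrays unequal but both above 2 hr, and a second probe set rose by 1.32 while another had −0.04. Hbegf, the heparin-binding ligand of the same receptor, read 285 and 225 at 4 hr, against 487 and 584 at 2 hr (log2 difference −1.08, standard error 0.15, adjusted p = 0.0066). Fgfr2, a receptor for FGFs, read 2105 and 2389 at 4 hr, against 3429 and 3223 at 2 hr (log2 difference −0.57, standard error 0.10, adjusted p = 0.018), and none of its other 4 probe sets was called. Of the 21 measured FGF ligands and receptors none rose (2.82% of all genes) and 1 fell (4.76%, against 1.84% of all genes). Without 2 hr replicate 1 or 2 the adjusted p of Egfr was up to 0.058, and that of Fgfr2 was up to 0.079 without either 2 hr array or 4 hr replicate 1.

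Of 19 Ets factors, which carry the ERK signal to promoters, 3 rose and 1 fell (15.8% and 5.26%, against 2.82% and 1.84% of all genes). Elk3 read 826 and 689 at 4 hr, against 349 and 223 at 2 hr (log2 difference 1.43, standard error 0.19, adjusted p = 0.0055), and Etv5 and Etv1, members of the Pea3 group, read 541 and 559.6 at 4 hr, against 354 and 258 at 2 hr, and 4471 and 4330.0 at 4 hr, against 3095 and 2095 at 2 hr (log2 differences 0.86 and 0.79). The third member of that group, Etv4, had 0.99 (adjusted p = 0.13). Another probe set of Etv5 (−0.05) and 1 of Elk3 (0.19) were not called, while 2 others of Elk3 rose (1.44 and 0.95). Ets2 went the other way and read 826 and 1229.9 at 4 hr, against 2442 and 3214 at 2 hr (log2 difference −1.47, standard error 0.19, adjusted p = 0.0049). Elk3 and Ets2 stayed called without any 1 array, Etv5 lost the call under 7 omissions (up to 0.13) and Etv1 under 9 (0.13), although all 4 other probe sets of Etv1 rose, by 0.81 to 1.17. In the Myc network Mycn rose and Mycl fell. Mycn, the Myc gene of progenitor cells, read 1536 and 1483 at 4 hr, against 594 and 628 at 2 hr (log2 difference 1.31, standard error 0.08, adjusted p = 3.3e-04), close to 1460 and 1439 at 0 hr, so the 2 hr arrays were the low ones. Mycl read 218 and 276 at 4 hr, against 465 and 505 at 2 hr (log2 difference −0.98, standard error 0.16, adjusted p = 0.012), and was not called without 2 hr replicate 2 (0.062) or 4 hr replicate 1. Myc itself was not called, as given above.

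In the BMP pathway, which acts with FGF in the lens, Msx2, Id1, and Smad6 rose and the ligand Bmp7 and the antagonist Chrd fell. With 28 genes measured, these were 10.7% rises and 7.14% falls, against 2.82% and 1.84% of all genes, and the median was 0.09. Msx2, a homeobox gene switched on by BMP, read 715 and 665 at 4 hr, against 199 and 219.9 at 2 hr (log2 difference 1.72, standard error 0.15, adjusted p = 0.001). A second probe set rose by 1.51, and a dim one was not called (−0.05). Id1, an inhibitor of basic helix-loop-helix factors and a direct target of BMP, read 4789.8 and 3977 at 4 hr, against 2594 and 1761 at 2 hr (log2 difference 1.03, standard error 0.23, adjusted p = 0.043). Smad6, the inhibitory Smad, read 367 and 288 at 4 hr, against 169.9 and 163 at 2 hr (log2 difference 0.96, standard error 0.15, adjusted p = 0.011), though its 3 other probe sets were not called (−0.28 to 0.29). At 0 hr Msx2 read 463 and 492 and Smad6 394 and 357, so the 2 hr arrays were the low ones. Id3 and Id2 had 0.95 (adjusted p = 0.2) and 0.56 (0.31), and Bmp4 and Bmp2 had 0.07 and 0.12, none of them called. Bmp7 read 219 and 311 at 4 hr, against 441 and 488 at 2 hr (log2 difference −0.83, standard error 0.16, adjusted p = 0.03), and the antagonist Chrd had −0.58. Msx2 kept its call without any 1 array, Smad6 lost it once, without 2 hr replicate 2 (0.058), Id1 and Bmp7 7 times (up to 0.17 and 0.12), and Chrd 8 times (0.17).

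The 20 genes of the TGF-beta and activin pathway gave 2 rises (10%) and 4 falls (20%), against 2.82% and 1.84% of all genes. Inhba, the activin A subunit, read 215 and 223 at 4 hr, against 393 and 646 at 2 hr (log2 difference −1.20, standard error 0.20, adjusted p = 0.015), and its second probe set fell by 1.16. Fstl3, an activin antagonist, read 678 and 638 at 4 hr, against 1067 and 1306 at 2 hr (log2 difference −0.84, standard error 0.11, adjusted p = 0.005), and Pmepa1, a TGF-beta target that restrains the pathway, 1174 and 1494 at 4 hr, against 2275 and 2635 at 2 hr (log2 difference −0.89, standard error 0.13, adjusted p = 0.008). The ligand Tgfb3 had −0.84, whereas the ligand Tgfb1 had 0.62 and Ltbp1, which binds latent TGF-beta in the matrix, 1.54 (adjusted p = 0.0457, 0.039, and 0.04). Fstl3 and Pmepa1 kept the call without any 1 array and Inhba lost it once, without 4 hr replicate 1 (0.063). The calls of Tgfb3, Tgfb1, and Ltbp1 ended under 8, 7, and 6 omissions (up to 0.18, 0.15, and 0.16).

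Rises among Wnt (2.78%) and Notch genes (4.17%) were about as frequent as among all genes (2.82%). The ligand Wnt4 read 181 and 320.1 at 4 hr, against 72.1 and 83.9 at 2 hr (log2 difference 1.63, standard error 0.23, adjusted p = 0.0081), while the Wnt receptor Fzd4 read 295 and 302 at 4 hr, against 549 and 612 at 2 hr (log2 difference −0.96, standard error 0.09, adjusted p = 0.0016). The secreted Wnt binder Sfrp2 (−0.72) and the R-spondin receptor Lgr4 (−0.78) fell too, giving 1 rise and 3 falls of 36. The falls were 8.33%, against 1.84% of all genes. Sfrp2 lost the call without either 2 hr array or 4 hr replicate 1 (up to 0.083), and Lgr4 without 2 hr replicate 2 (0.064). The Notch ligand Jag2 read 229 and 316 at 4 hr, against 93.3 and 62.0 at 2 hr (log2 difference 1.82, standard error 0.21, adjusted p = 0.0031), and Rbpj, the DNA-binding partner of Notch, had −0.37 (adjusted p = 0.038), a call that each of the 10 omissions ended (up to 0.1). The Notch targets Hes1 and Hey1 had 0.02 and −0.07 and were not called. Other probe sets of Fzd4 (−0.42), Sfrp2 (−0.63), and Rbpj (−0.18 and −0.19) were not called either. Ephb3, a receptor for ephrins, fell by 0.84 (adjusted p = 0.018), but not without 2 hr replicate 2 or 4 hr replicate 1 (up to 0.086).

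Clock genes moved both ways. Of 14 core clock genes 2 rose (14.3%, against 2.82% of all genes) and none fell (1.84% of all genes). The 2 were Npas2 and Rorb, an activator of the Bmal1 gene. Rorb read 118 and 112 at 4 hr, against 51.1 and 41.1 at 2 hr (log2 difference 1.33, standard error 0.12, adjusted p = 0.0014). Bmal1 and Clock themselves had 0.33 and −0.32, and Per2 −0.95 (adjusted p = 0.05), none of them called. Of 11 output factors Cebpd rose (9.09%), and Hlf and the repressor Bhlhe40 fell (18.2%). Cebpd, a C/EBP factor of the acute phase response, read 421 and 337 at 4 hr, against 198 and 122 at 2 hr (log2 difference 1.27, standard error 0.21, adjusted p = 0.014), with a second probe set that rose by 1.22 and a dim one not called (0.01). Bhlhe40 read 207 and 227 at 4 hr, against 349.9 and 458 at 2 hr (log2 difference −0.88, standard error 0.19, adjusted p = 0.041), and its relative Bhlhe41 had −2.01 (adjusted p = 0.1). Cebpd was not called without 4 hr replicate 1 (0.07) and Bhlhe40 not under 7 omissions (up to 0.15), while Rorb, Npas2, and the brighter probe set of Hlf (log2 difference −1.98, standard error 0.28, adjusted p = 0.008) were called under all 10.

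Of 24 chemokines, Ccl20, Cxcl1, and Cxcl2 rose and none fell, and of 30 cytokine and NF-kB genes Il18, Nfkbia, and Tnfaip3 rose and none fell, which is 12.5% and 10% rises against 2.82% of all genes, where 1.84% fell. The medians of both lists were 0.05 and 0.03. Cxcl1, which attracts neutrophils, read 2285 and 1992 at 4 hr, against 897 and 703 at 2 hr (log2 difference 1.43, standard error 0.26, adjusted p = 0.02), and Cxcl2, its close relative, 187 and 151 at 4 hr, against 84.1 and 50.3 at 2 hr (log2 difference 1.37, standard error 0.21, adjusted p = 0.011). Cxcl3, the third of this kind, had 1.33 (adjusted p = 0.087). Il18, a cytokine of the interleukin-1 family, read 859.6 and 1164 at 4 hr, against 351 and 287 at 2 hr (log2 difference 1.66, standard error 0.19, adjusted p = 0.0034). Nfkbia, the inhibitor that holds NF-kB in the cytoplasm, read 3689 and 3329 at 4 hr, against 2226 and 1796 at 2 hr (log2 difference 0.81, standard error 0.13, adjusted p = 0.014), and Tnfaip3, the deubiquitinase A20 that ends NF-kB signaling, 1542 and 1099.9 at 4 hr, against 531 and 712 at 2 hr (log2 difference 1.08, standard error 0.23, adjusted p = 0.039). Ccl2, a monocyte attractant, had 0.33 (adjusted p = 0.76), and Il6 and Ptgs2 had −0.11 and −0.30. Irf1 alone of 27 interferon-stimulated genes rose, by 0.55 on the log2 scale (adjusted p = 0.036), which is 3.7%, near the 2.82% of all genes. The macrophage markers summed to 867 to 872 at 4 hr, between the 715 and 1099 of the 2 hr arrays, and the part of macrophages in these rises was not tested. Ccl20 and Il18 stayed called without any 1 array. Cxcl2 lost its call without 4 hr replicate 1 (0.0531), Cxcl1 and Nfkbia without 2 hr replicate 2 or 4 hr replicate 1 (up to 0.097 and 0.066), Tnfaip3 7 times (0.16), and Irf1 9 times (0.14).

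An NF-kB site was matched in 7.32% of the promoters of genes that rose, 3.32% of those of genes that fell, and 4.93% of all. It is shown in capitals for 5 members of these lists that rose, again 5′ to 3′ along the gene from RefSeq, GRCr8.
Ccl20, chr9:91837060-91837089, plus strand: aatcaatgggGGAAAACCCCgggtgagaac
Cxcl1, chr14:17479386-17479415, minus strand: cctgtgctccGGGAATTTCCCtggcctgga
Cxcl2, chr14:17467310-17467339, minus strand: cctaagctcaGGGGATTTCCCtgatccctg
Nfkbia, chr6:78597084-78597113, minus strand: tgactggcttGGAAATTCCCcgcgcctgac
Tnfaip3, chr1:15544027-15544056, minus strand: tcacgtgactGGAAAGTCCCtcggaaatcc
The match begins 89 bases before the start in Ccl20, 84 in Cxcl1, 74 in Cxcl2, 31 in Nfkbia, and 67 in Tnfaip3, which holds 2 more matches, and in Cxcl1 and Cxcl2 2 overlapping matches are shown as 1 run. Both strands were searched, and 1 stretch may match several of the 12 motifs. For the 10 others the shares among rises, falls, and all promoters were 9.3, 7.88, and 8.92% for the E-box CACGTG, 1.97, 1.24, and 2.86% for the cAMP response element TGACGTCA, 5.92, 3.73, and 5.44% for the AP-1 site TGANTCA, and 0.563, 1.66, and 1.36% for the D-box TTANGTAA. They were 2.82, 2.07, and 2.21% for the amino acid element TGATGNAA, 6.2, 7.05, and 5.9% for the heat shock pair GAANNTTC, 4.23, 1.66, and 6.84% for the Ets site CCGGAAGT, 23.1, 20.7, and 19.6% for the BMP palindrome GGCGCC, and 7.89, 7.05, and 7.64% for the E2F site TTTNNCGC. For the Egr site GCGTGGGCG they were 2.25, 1.66, and 1.02%. These shares are a description of the letters in the promoter table and were not tested.

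The amino acid response of the transcription factor ATF4 gave the most rises of any list. Of 40 genes 8 rose (20%, against 2.82% of all genes) and none fell (1.84% of all genes), 34 had a positive difference (85%, against 47.5%), and the median was 0.39. Asns, asparagine synthetase, read 821 and 1299 at 4 hr, against 446 and 406 at 2 hr (log2 difference 1.28, standard error 0.20, adjusted p = 0.011), with the 2 hr arrays far below 1374 and 1184 at 0 hr. Slc7a5, the large neutral amino acid transporter, read 1681 and 2060.0 at 4 hr, against 754 and 533 at 2 hr (log2 difference 1.55, standard error 0.17, adjusted p = 0.0028), and Slc7a3, a cationic amino acid transporter, 391 and 507 at 4 hr, against 256 and 154 at 2 hr (log2 difference 1.16, standard error 0.24, adjusted p = 0.037). At 0 hr Slc7a3 read 933 and 1037, above both of its 4 hr arrays. In serine and one-carbon metabolism Psph rose by 0.87, Mthfd2 by 0.82, and Shmt2 by 0.54. Psph read 546 and 622 at 4 hr, 381 and 267 at 2 hr, and 519 and 537 at 0 hr, so its 2 hr arrays were the low ones. The tRNA synthetases Tars1 and Mars1 rose by 0.49 and 0.47, and 8 others (Aars1, Eprs1, Sars1, Wars1, Iars1, Nars1, Yars1, and Cars1) had 0.33 to 0.70 with no call. Trib3 had 0.89 (adjusted p = 0.27), Atf4 itself 0.19, and the stress genes Ddit3 and Chac1 −0.13 and −0.11. A dim second probe set of Mars1 was not called (−0.07). Slc7a5 kept its call without any 1 array, Asns lost it without 2 hr replicate 2 (0.06) and Psph without 4 hr replicate 2 (0.0527). Shmt2 lost it under 5 omissions, Mthfd2 under 8, Slc7a3 and Tars1 under 9, and Mars1 under all 10 (up to 0.15).

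Amino acid transporters moved both ways. Of 30 genes of nutrient transport 4 rose, among them Slc7a5 and Slc7a3 of the ATF4 response above, and 3 fell. These were 13.3% and 10%, against 2.82% and 1.84% of all genes. The neutral amino acid exchangers Slc1a4 and Slc1a5 rose by 0.72 and 0.74. The glutamate transporter Slc1a1 read 91.8 and 85.4 at 4 hr, against 191 and 182 at 2 hr (log2 difference −1.08, standard error 0.12, adjusted p = 0.0028) and the glutamine transporter Slc38a3 352 and 513 at 4 hr, against 974 and 1115 at 2 hr (log2 difference −1.29, standard error 0.17, adjusted p = 0.0052). Slc38a4 fell by 0.87. Slc1a1 and Slc38a3 were called under all 10 omissions, Slc1a4 in all but that of 2 hr replicate 2 (0.061), Slc38a4 in all but 2 hr replicate 2 and 4 hr replicate 1 (up to 0.081), and Slc1a5 under only 1 of the 10 (adjusted p up to 0.16).

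**Figure D3:**
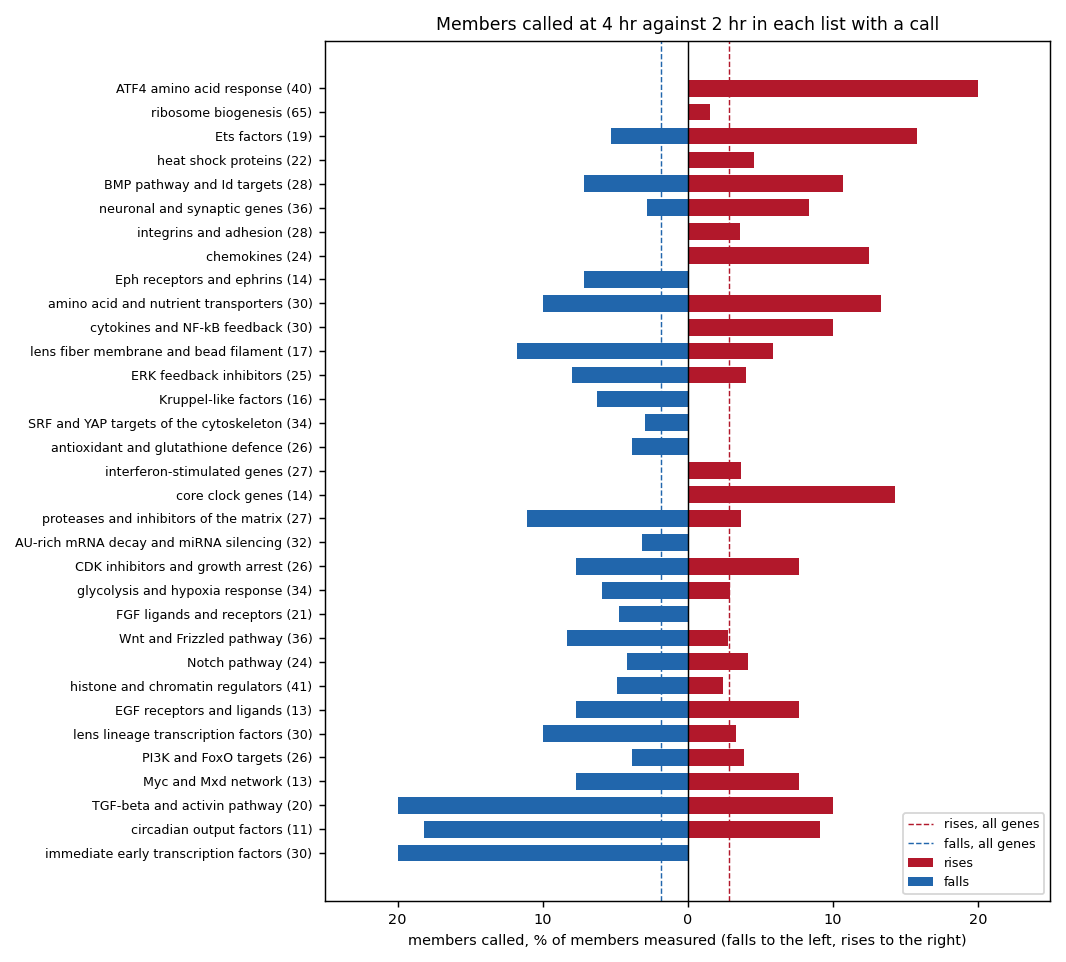
Share of the measured members (number in parentheses) of each list that was called at 4 hr against 2 hr, with falls to the left and rises to the right, for the 33 lists with a call out of 45, ordered by their median difference, the highest at the top. Dashed lines mark the shares over all genes, 2.82% for rises and 1.84% for falls, and the ATF4 response reached 20% for rises, the immediate early factors 20% for falls. The list of genes the study names is left out.

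Genes of growth gave small differences with hardly a call. Of 65 genes of ribosome biogenesis 56 were higher at 4 hr, against 47.5% of all genes, yet the median was 0.13 and only Heatr1, a factor of the small ribosomal subunit, was called (log2 difference 0.47, adjusted p = 0.0478, not called under 9 omissions). Of 30 proteasome subunits 29 were higher, with a median of 0.10 and no call. Of 47 genes of the G1/S transition and DNA replication 41 were lower, with a median of −0.17 and no call, while of 42 genes of G2 and mitosis 21 were higher and 21 lower, also with no call. The genes of such a list are not independent of each other. Cytosolic ribosomal proteins (median 0.00, range −0.28 to 0.18) and oxidative phosphorylation (−0.02, −0.15 to 0.15) had no call either. In the list of growth arrest genes Rbl2 and Rb1, the pocket proteins that hold E2F, rose by 0.57 and 0.44, and Gadd45a and Gadd45b, which respond to DNA damage and stress, fell by 1.04 and 0.81. The 2 hr arrays of Rbl2 (388 and 409) were the low ones, against 556 and 580 at 0 hr and 570 and 615 at 4 hr. Of these growth arrest genes, Rbl2 alone was called without any 1 array. Gadd45a was not without 2 hr replicate 2 (0.09), and Gadd45b and Rb1 were not under 9 omissions.

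Genes of fuel use gave calls in both directions. Besides Pdk4 and Pfkfb3, the muscle-type phosphofructokinase Pfkm had −0.47 (adjusted p = 0.044, a call ended by every omission), whereas the platelet type Pfkp read 1380.2 and 1315 at 4 hr, against 802 and 890.1 at 2 hr (log2 difference 0.67, standard error 0.11, adjusted p = 0.013, not called without 4 hr replicate 1). That made 1 rise (2.94%) and 2 falls (5.88%) among 34 genes of glycolysis and hypoxia, against 2.82% and 1.84% of all genes. Trib2, a pseudokinase that restrains FoxO, rose by 1.12, but not without 2 hr replicate 2 (0.056). Osgin1, an oxidative stress gene, fell by 0.85 and lost its call under 5 omissions. Other probe sets of Pfkm (−0.12 and −0.25) and Trib2 (0.75) were not called. No gene of cholesterol and fatty acid synthesis (29 measured), of the insulin-like growth factor system (19), of the unfolded protein response (25), or of collagens and basement membrane (34) passed the test.

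Among lens fiber genes the calls went both ways. Of 17 genes of the fiber membrane and the bead filament, Caprin2, an RNA-binding protein of lens fibers, rose, and Gja3 and the bead filament gene Bfsp2 fell. These were 5.88% rises and 11.8% falls, against 2.82% and 1.84% of all genes. Caprin2 read 1966 and 1872 at 4 hr, against 1188 and 1240.2 at 2 hr (log2 difference 0.66, standard error 0.09, adjusted p = 0.0052). Bfsp2, phakinin, read 1367 and 1910.4 at 4 hr, against 2497 and 3599 at 2 hr (log2 difference −0.89, standard error 0.19, adjusted p = 0.041), with 2 hr replicate 1 nearest to 4 hr, and lost the call under 8 omissions (up to 0.16). Mip, the aquaporin of fibers, had −0.73 (adjusted p = 0.43). None of 16 crystallins passed, with a median of 0.20 and a range from −0.25 to 1.37, the last for Cryba2 (adjusted p = 0.35). Probe sets of the gamma crystallins may share signal with each other, as these genes are nearly alike.

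Among 30 transcription factors of the lens lineage Sox2 rose (3.33%, against 2.82% of all genes) and Meis2, Nfia, and Maff fell (10%, against 1.84%). Sox2, an early lens and progenitor factor, read 4135 and 3825 at 4 hr, against 2750.1 and 2513 at 2 hr (log2 difference 0.60, standard error 0.12, adjusted p = 0.033), and its 3 other probe sets were not called (0.01 to 0.95). At 0 hr Sox2 read 3811 and 3665, so the 2 hr arrays were the low ones. Meis2, a homeobox regulator of Pax6, read 253 and 263 at 4 hr, against 492 and 689.8 at 2 hr (log2 difference −1.17, standard error 0.14, adjusted p = 0.0044), and Nfia, a nuclear factor I gene, 459 and 494 at 4 hr, against 844 and 719 at 2 hr (log2 difference −0.71, standard error 0.12, adjusted p = 0.013). Neither other probe set of Nfia was called (−0.22 and −0.27). Foxe3 had −0.50, Pax6 −0.23, Prox1 0.09, and Maf 0.04, none of them called. Meis2 was called under all 10 omissions, Nfia not without 4 hr replicate 1 (0.06), and Sox2 not under 5 (up to 0.13).

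Neuronal genes that the lens also makes gave 3 rises (8.33%) and 1 fall (2.78%) of 36, against 2.82% and 1.84% of all genes. The neurofilament light chain Nefl read 255 and 365 at 4 hr, against 104 and 178 at 2 hr (log2 difference 1.17, standard error 0.26, adjusted p = 0.044), and its second probe set rose by 1.45. The secreted neuropeptide precursor Vgf read 787 and 698 at 4 hr, against 419.7 and 389 at 2 hr (log2 difference 0.88, standard error 0.13, adjusted p = 0.01), and the neuronal tubulin Tubb3 had 0.70. A second, dim probe set of Tubb3 was not called (−0.08). Map2, which binds microtubules, read 1857 and 1961 at 4 hr, against 2864 and 3378 at 2 hr (log2 difference −0.70, standard error 0.14, adjusted p = 0.031), with a second probe set at −0.93. Vgf lost its call only without 2 hr replicate 2 (0.055), Tubb3 under 5, Map2 under 7, and Nefl under 8 omissions.

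In the matrix and on the chromatin a few single genes stood out. The plasminogen activator Plat read 1766 and 1902 at 4 hr, against 926 and 870.2 at 2 hr (log2 difference 1.03, standard error 0.10, adjusted p = 0.0013). The urokinase receptor Plaur (−0.70), the metalloproteinase Mmp11 (−0.77), and Adamts1 (−1.02) fell, each losing the call under 6 to 9 omissions. So 1 of 27 genes of this kind rose and 3 fell (3.7% and 11.1%, against 2.82% and 1.84% of all genes). Ezh1, a histone H3 lysine 27 methyltransferase, read 729.8 and 698 at 4 hr, against 396 and 384 at 2 hr (log2 difference 0.87, standard error 0.10, adjusted p = 0.0031), while the demethylases Kdm6b and Kdm7a fell by 1.04 and 0.42 and lost their calls under 9 omissions. The integrin Itga3 (0.49) and the co-chaperone Bag3 (0.62) rose, and the decay factor Zfp36l2 fell by 0.67, with calls lost under 7, 3, and 6 omissions. Plat and Ezh1 kept theirs without any 1 array. Other probe sets of Ezh1 (0.23), Plaur (−0.04), and Zfp36l2 (0.03 and −0.34) were not called. Of 56 genes that the study names, a set chosen on these samples, Mycn, Etv1, and Id1 rose (5.36%) and Ets2 and Bmp7 fell (3.57%), which are described above.

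The step from 12 to 24 hr lies on other arrays and allows the test of the difference between the 2 steps. Of the 31042 probe sets, 689 (2.22%) rose and 659 (2.12%) fell from 12 to 24 hr, and 1229 (3.96%) had a higher and 1040 (3.35%) a lower step at 2 to 4 hr than at 12 to 24 hr by limma. Of the 694 rises at 4 hr, 156 (22.5%) fell and 13 (1.87%) rose at 24 against 12 hr, and 76.1% had a negative difference there, against 49.1% of all probe sets. Of the 465 falls at 4 hr, 54 (11.6%) rose and 16 (3.44%) fell, and 62.6% had a positive difference, against 50.9% of all. Both comparisons use the same estimate of spread for a probe set, so one with little spread is called more readily in both. Leaving out an array lowered the counts of the difference to 455 and 328 (without 12 hr replicate 2), 572 and 418 (12 hr replicate 1), 648 and 631 (24 hr replicate 2), 761 and 563 (24 hr replicate 1), or 770 and 631 (either 0 hr array), and the second to 676 without 2 hr replicate 2.

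Of the 15 largest rises, 9 fell at 24 against 12 hr and none rose. They were chosen by the early step, which is also part of the difference between the steps, so only their later step is given here. Slc22a4 had −2.84 at 24 minus 12 hr (adjusted p = 5.5e-04), Cnr1 −2.40 (0.014), and Npas2 −1.77 (3.0e-04). Kcnd3, already back at its 0 hr level by 12 hr, had 0.08 and was not called. Among list members that rose at 4 hr, Il18 had −2.91 (adjusted p = 5.2e-04), Asns −2.49 (9.9e-04), and Slc7a3 −2.82 (0.0013). The ATF4 list as a whole had a median of −0.29 at 24 minus 12 hr, with 11 falls and no rise of 40, against 0.39 with 8 rises at 4 minus 2 hr.

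Of the 15 largest falls, only Chn2 (1.15, adjusted p = 0.0073) and Map2k6 (1.03, 0.0098) rose at 24 against 12 hr, and none fell. Among list members Fstl3 (0.97, adjusted p = 0.0031) and Bfsp2 (0.91, 0.036) fell in the early and rose in the late step. Of the named genes, 6 fell in both steps, and their later differences were −1.18 for Dusp5, −1.14 for Zfp36l2, −1.05 for Slc38a4, −0.97 for Bhlhe40, −0.66 for Lgr4, and −0.62 for Nab2. Rbl2 (0.48) and Slc1a4 (0.89) rose in both.

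**Figure D4:**
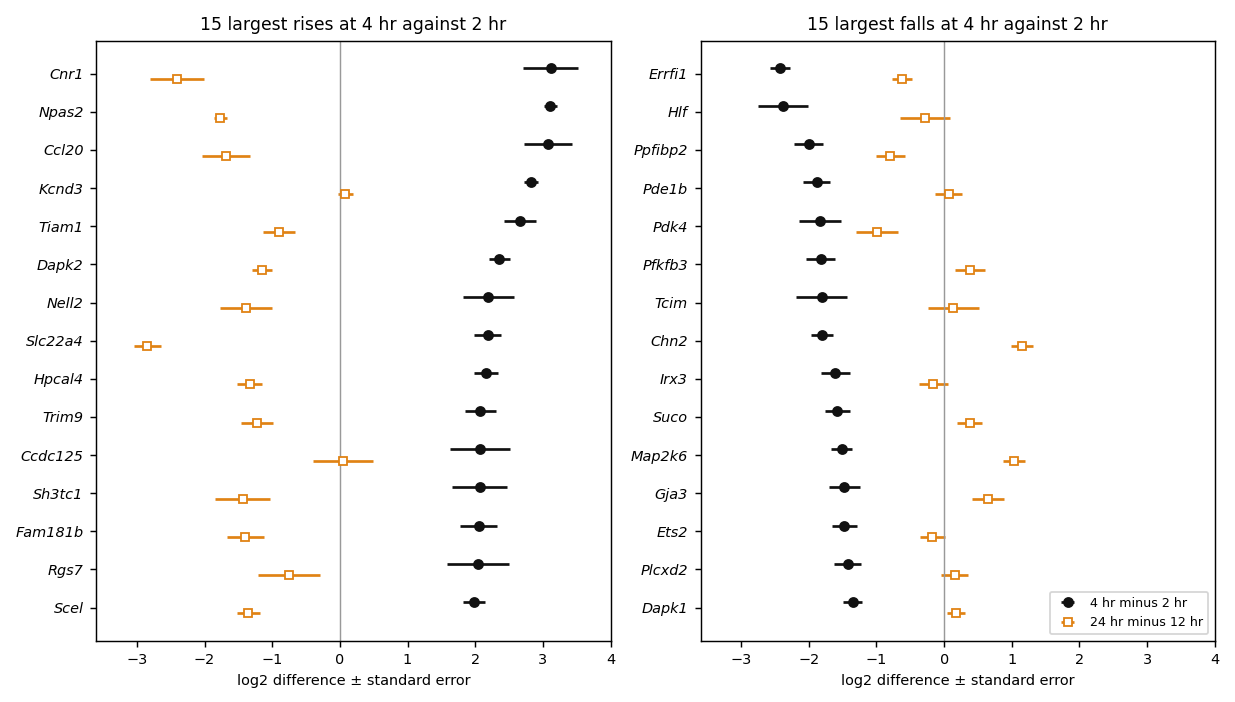
Log2 difference with its standard error of 4 hr minus 2 hr (filled circles, upper) and of 24 hr minus 12 hr (open squares, lower) for the 15 largest rises (left) and the 15 largest falls (right) at 4 hr against 2 hr. Most of the rises have a negative later step, 13 of 15, while the falls have later steps of either sign, 6 of 15 negative.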

How the data were processed

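The deposited intensity values, 1 per probe set and array, were made by the authors with the robust multichip average (RMA) on a linear scale; the version is not given in the sources used here, and depth has no meaning for arrays, where their number limits the precision. Here their log2 was used as it stood, leaving out 57 array controls. Gene symbols came from the platform annotation: 20826 probe sets had 1, 436 several, and 9780 none, and 320 of the 1159 called had no single symbol. A gene in a list is shown by its brightest probe set. In R 4.3.3 with limma 3.58.1, 1 mean per time was fitted over 10 arrays (5 residual degrees of freedom, prior 3.69) and p-values were adjusted over all probe sets. Named are the 15 largest rises and falls that did not overlap, the list members, and the genes the study names. Members and lists were chosen with earlier results of these data known. The methods and the sample labels differ on the array model and the RNA kit, and the annotation used here is that of the Rat Genome 230 2.0 array. The fit was run on simulated data with the same spread at every time. That setting lacks the wider spread of the 2 and 4 hr arrays, so it cannot test the calls under it. Alternatives were other priors, weights, normalizations, filters, a block, a covariate, and each array left out; a time left with 1 array is assumed to vary like the others.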

Additional observations from a re-analysis of the deposited data

How the results depend on the processing

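The 116 called probe sets named, of 114 genes, kept their direction under each alternative run. Omissions, weights, and priors could not reverse it, since both 4 hr arrays lay outside both 2 hr arrays in each. What changed was how many passed the threshold. Over the omissions of 1 array, rises at 4 hr against 2 hr ranged from 389 to 837 and falls from 238 to 909, and probe sets with the 2 to 4 hr step above the 12 to 24 hr step from 455 to 1448 and below it from 328 to 1349. The 4 arrays alone gave 12 rises and 0 falls, and weights for each time point or for each array 274 and 173. The methods' analysis of variance gave 0 rises and 0 falls after Benjamini-Hochberg adjustment, but 1157 and 1194 at its unadjusted threshold, and limma gave 2661 and 2640 at an unadjusted p under 0.05. With the replicate number as a block there were 577 rises and 417 falls, and 1105 and 912 probe sets above and below in the step difference. With a block of the 2 and 4 hr arrays only there were 1207 and 1028. Replicates deviated together between 2 and 4 hr (correlation of deviations 0.33), but 2 pairs that share only a number are not a pairing. A trended robust prior, a filter on dim probe sets, quantile or median scaling, and the Actb ratio as a covariate gave 652 to 859 rises and 483 to 617 falls. The mean of all probe sets of a gene moved 40 of the named differences by at least their standard error in the pooled fit. With 2 arrays per time, the pooled spread sets what can be called, and the causes of these shifts were not tested.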
